A study of Mus musculus with 36 samples.

Results

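The primary neutrophil granule genes described here are Mpo, Elane, Prtn3, Ctsg and Ms4a3, chosen by name, which are 5 of 31093 gene names on the array, read by 6 of its 39429 probes. Blood RNA from 36 male C57BL/6J mice was hybridised one mouse to an array, with 6 mice in each of 6 groups, all sacrificed 7 days after treatment. The groups were sham-irradiated controls, mice given 3 Gy of x-rays, mice given mixed field x-ray and neutron exposures in which neutrons made up 5, 15 or 25% of a total dose of 3 Gy, and mice given 0.75 Gy of neutrons. By these labels the mixed fields delivered 0.15, 0.45 and 0.75 Gy as neutrons. Per the study's methods, the neutron beam, used alone and in the mixed fields, also carried a small photon component. All mice were 8 to 10 weeks old at irradiation or sham irradiation, and the labels name no engineered allele or transgene in any group. Blood from each mouse was lysed whole, so fewer cells of a type and less RNA per cell cannot be told apart in any level below.

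Primary, or azurophil, granules are the first granules a developing neutrophil makes. Their enzymes are transcribed in the promyelocyte in the bone marrow, and transcription stops before the cell matures, so mature neutrophils in blood hold the proteins but little of the messenger RNA. Secondary and tertiary granule genes are transcribed later, in myelocytes, metamyelocytes and band cells. Myeloperoxidase, encoded by Mpo, makes hypochlorous acid from hydrogen peroxide. Elane (neutrophil elastase), Prtn3 (proteinase 3) and Ctsg (cathepsin G) encode serine proteases of the granule, and Ms4a3 encodes a membrane protein of granulocyte-monocyte progenitors. The transcription factors PU.1, C/EBP, RUNX and MYB are known regulators of these genes.

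The sequences on which the readings rest are shown first, because the Elane probe shares a feature with the probes that followed it most closely (below). Each array probe was 60 bases long, and bases 1 to 30 are printed 5′ to 3′ in the sense of the array file, with the longest unbroken run of C and T in capitals. The first 4 belong to the 3 members that passed the filter on low signals and to the brighter Mpo probe.
Elane: gCTCCCCCCTCTaccagagacctctccatt
Prtn3: TTCCagaacaattacaaccccgaggagaac
Ctsg: gacgCTTTgcaccaagatatcagagacctg
Mpo: gaaggacggaggccattggCCTTCCTgtgc
The next 3 belong to the genes whose levels were most like those of Elane over the 36 arrays.
BC043934: gTTCTCTCCTCCCCTCCCactctgagactg
ENSMUST00000030443: ggccctctgTTCCCCTCCCTacctcctacc
Olfr1008: tgaatttgCTCTCCTCTCTTCTgatagtcc
The run was 11 bases long in the Elane probe, and 17, 11 and 14 bases in the probes of BC043934, ENSMUST00000030443 and Olfr1008. It was 4 bases in the Prtn3 and Ctsg probes and 7 in the brighter Mpo probe.

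On the mm9 build used by the array file, the Elane probe lies on the plus strand at chr10:79350902-79350961, the Ctsg probe on the minus strand at chr14:56718795-56718854, and the Ms4a3 probe on the minus strand at chr19:11704055-11704114. The 2 Mpo probes lie at chr11:87617840-87617899 and chr11:87615121-87615180, and the file gives no position for the Prtn3 probe. In RefSeq on GRCm38.p6, Prtn3 (chr10:79879667-79883174) and Elane (chr10:79886312-79888216) are neighbours whose starts lie 6645 bases apart on the same strand, while Mpo is at chr11:87793784-87804412, Ctsg at chr14:56099885-56102574 and Ms4a3 at chr19:11629499-11640851. Whether a probe lies in an exon or a UTR was not worked out, since the probe positions and the gene models are on different builds. The RefSeq promoters, from 250 bases before to 50 bases after the gene start, are shown for this pair of neighbours, with each GAGGAA (the letters searched for PU.1, on either strand) in capitals.
Elane, chr10:79886062-79886361, plus strand: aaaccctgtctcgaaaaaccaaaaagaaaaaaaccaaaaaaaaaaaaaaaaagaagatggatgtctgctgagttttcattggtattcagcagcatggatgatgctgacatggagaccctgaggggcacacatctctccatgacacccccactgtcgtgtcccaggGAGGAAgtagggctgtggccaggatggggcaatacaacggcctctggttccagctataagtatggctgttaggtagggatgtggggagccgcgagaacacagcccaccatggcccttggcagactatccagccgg
Prtn3, chr10:79879417-79879716, plus strand: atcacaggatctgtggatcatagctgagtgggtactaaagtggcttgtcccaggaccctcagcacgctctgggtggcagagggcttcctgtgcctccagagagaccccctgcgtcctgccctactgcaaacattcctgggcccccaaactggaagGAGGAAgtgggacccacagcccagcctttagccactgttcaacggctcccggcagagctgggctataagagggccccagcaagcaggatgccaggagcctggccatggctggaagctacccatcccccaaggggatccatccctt
GAGGAA was found once in the promoters of Elane, Prtn3, Ctsg and Ms4a3 and 2 times in that of Mpo, and 28.3% of the 32851 RefSeq promoters of this length hold it. The MYB letters AACNG were found in the promoters of Elane, Prtn3, Ctsg and Mpo and in 80.3% of all promoters. The RUNX letters TGTGGT were found in that of Ctsg and in 16.8% of all, and the C/EBP letters TTNNGNAA in that of Ms4a3 and in 40.7% of all. Both strands were searched, and a match is a description of letters only.

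Of the 5 genes, Elane, Ctsg and Prtn3 passed the filters and were tested, among 15085 genes in all. The 2 Mpo probes were significantly above background on 27 and 4 of the 36 arrays and the Ms4a3 probe on 16, so these 2 genes did not enter the tests. Probes are called well above background by a stricter mark of the scanner software, and by that mark Elane was measured on 36 arrays, Ctsg on 32, Prtn3 on 9, the brighter Mpo probe on 3, Ms4a3 on 1 and the other Mpo probe on 0. Levels below are log2 intensities with the median of the array subtracted, and they are compared only within a probe. A gene was called changed where limma gave a p-value under 0.001 and a Benjamini-Hochberg adjusted p-value under 0.05 over all genes tested. Elane was called higher than in controls in 4 of the 5 exposures (all but the 5% mixed field), and no other member was called in any.

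**Figure D1:**
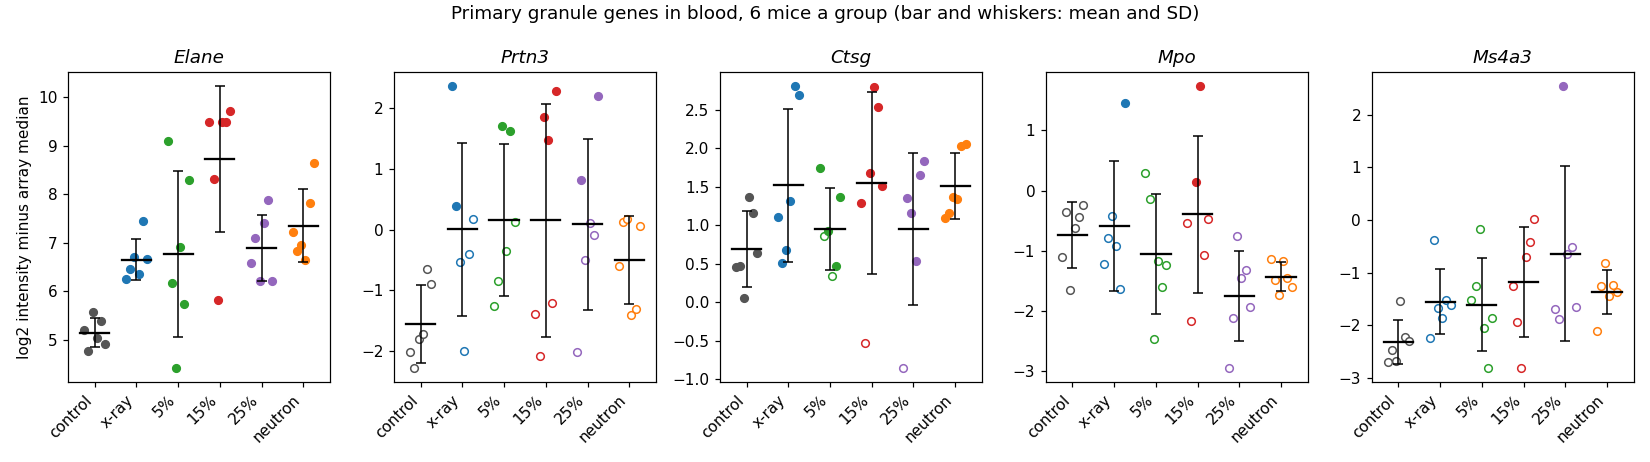
Level of each gene in every mouse (vertical axis, log2 intensity minus the array median; horizontal axis, the 6 groups). Filled circles are arrays on which the probe was well above background and open circles are arrays on which it was not, and the bar and whiskers give the mean and SD. Elane is filled throughout and lowest in controls, where its highest value is 5.58, while Mpo and Ms4a3 are mostly open circles.

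Elane was the only member measured on every array, and its mean level was lowest in controls and highest in the 15% mixed field. In controls the Elane level ran from 4.78 through a median of 5.13 to 5.58. After x-rays it ran from 6.26 through 6.56 to 7.45, above every control. In the 5% mixed field it ran from 4.43 through 6.54 to 9.10, so that 5 of 6 mice were above every control and 1 was below them all. This was the widest group. In the 15% mixed field the Elane level ran from 5.82 through 9.50 to 9.72, with replicate 3 alone at the low end. In the 25% mixed field it ran from 6.21 through 6.85 to 7.88, and after neutrons alone from 6.64 through 7.10 to 8.64. Both of these groups also lay above every control.

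Against controls, the Elane log2 fold change was 1.5 ± 0.231 (SE) after x-rays (adjusted p = 0.00018 by limma), which is 2.83-fold. It was 3.57 ± 0.558 in the 15% mixed field, or 11.9-fold (adjusted p = 0.000169). The change was 1.75 ± 0.296 in the 25% mixed field, or 3.36-fold (adjusted p = 0.000363). After neutrons alone it was 2.20 ± 0.304, or 4.61-fold (adjusted p = 4.74e-05). In the 5% mixed field the difference was 1.62 ± 0.619 (adjusted p = 0.0457 by limma) and was not called, since the unadjusted value was above 0.001. Over all genes tested, 12.9% were called higher after x-rays, 9.04%, 12.6% and 10.9% in the 5, 15 and 25% mixed fields and 16.1% after neutrons alone. Groups that did not overlap, with the exposed mice higher, were found for 14.5%, 7.72%, 10.9%, 12.2% and 15% of genes in the same order. All 5 comparisons share the same 6 control mice.

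The ordering of the Elane mean levels was control (5.15 ± 0.301, SD, n = 6), x-rays (6.65 ± 0.426), 5% (6.78 ± 1.71), 25% (6.90 ± 0.678), neutrons alone (7.36 ± 0.750) and 15% (8.73 ± 1.51). The 5% and 25% mixed fields differed from x-rays by 0.12 and 0.25 on the log2 scale, with 95% intervals from -1.22 to 1.46 and from -0.46 to 0.96. The 15% mixed field was 2.07 ± 0.572 above x-rays (adjusted p = 0.0375 by limma), which was not called for the same reason, and 5 of its 6 mice lay above every x-ray mouse. Neutrons alone were 0.70 ± 0.334 above x-rays (adjusted p = 0.133 by limma) and 0.45 ± 0.379 above the 25% mixed field, which had the same neutron dose with x-rays added (adjusted p = 0.399 by limma). Among all genes tested, 0%, 4.09%, 2.61% and 12.9% were called between x-rays and the 5, 15 and 25% mixed fields and neutrons alone, and 11.4% between neutrons alone and the 25% mixed field. No member was called in these 5 comparisons.

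Several measured properties of the arrays differed between the groups. The median intensity of an array had a middle value of 22.2 in controls against 15.0 after x-rays, 13, 14.3 and 27.2 in the 5, 15 and 25% mixed fields and 11.9 after neutrons alone, and this median is what was subtracted. Without subtraction, the Elane intensity had a median of 820 in controls, 1391 after x-rays, 1558, 5569 and 3320 in the 5, 15 and 25% mixed fields and 1904 after neutrons alone, and Elane was called in the 15 and 25% mixed fields only. With the arrays set instead on the labelled spike-in transcripts, it was called only in the 15% mixed field. A normexp background correction in place of the scanner's own also added an offset of 50 to every intensity, more than the median intensities above. With it, Elane was again called only in the 15% mixed field, and the 5% difference was -0.05. That correction called 2.49 to 7.42% of all genes in the 5 comparisons with controls, where the main setting called 23.1 to 36.6%. Scan sessions were nearly aligned with groups: 5 controls and 5 x-ray mice shared a session, 5 mice of each of the 5% and 15% mixed fields another, all 25% and neutron-alone mice one more, and a single slide scanned on its own held 1 mouse each of controls, x-rays, 5% and 15%. Within the session of controls and x-rays, the Elane difference was 1.58 (5 against 5 mice). On the single shared slide, it was 1.09 for x-rays, 0.18 for 5% and 0.24 for 15%, each 1 mouse against 1. With scan session as a block the 15% value became 0.24 ± 0.630 (adjusted p = 0.917 by limma), an estimate that rests on that slide alone. Without the 4 arrays of that session it was 4.24 ± 0.282 (adjusted p = 8.55e-07 by limma), and 15% was then also called above x-rays, by 2.66. Leaving out replicate 3 of the 15% mixed field alone had the same effect on that call, with a difference of 2.65 (adjusted p = 0.000169 by limma). For the 25% and neutron-alone groups, scan session and exposure cannot be told apart, because no control shared a session with them. The part of these properties in the result was not tested.

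**Figure D2:**
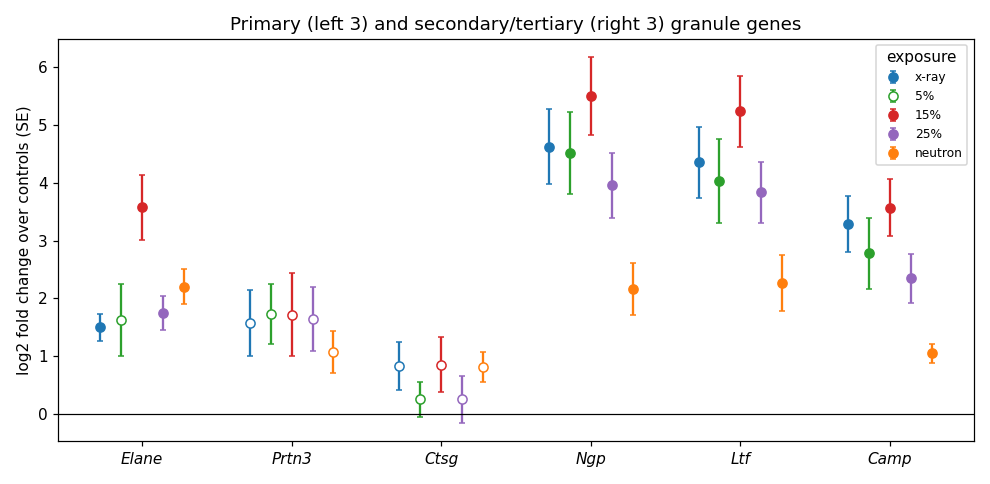
Log2 fold change over controls with its SE (vertical axis) for the 3 primary granule genes tested and for the secondary and tertiary granule genes Ngp, Ltf and Camp (horizontal axis), coloured by exposure. Filled points passed both thresholds and open points did not. Elane is filled in 4 of 5 exposures, Prtn3 and Ctsg in none, and Ngp, Ltf and Camp in all 5.

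Prtn3 was dim. It was well above background in 0 of 6 controls, 2 of 6 mice in each of the x-ray, 5% and 25% groups, 3 of 6 in the 15% group and 0 of 6 after neutrons alone. Its level ran from -2.28 through a median of -1.76 to -0.65 in controls, from -2 through -0.11 to 2.37 after x-rays, and from -1.27 through -0.12 to 1.71 in the 5% mixed field. It ran from -2.08 through 0.13 to 2.28 in the 15% mixed field, from -2.03 through 0.01 to 2.21 in the 25% mixed field and from -1.41 through -0.27 to 0.17 after neutrons alone. Every exposed group held mice within the control range and mice above it. Since controls gave only a bound, the mean Prtn3 level was at least 1.39-fold higher after x-rays and at least 1.56-, 1.55- and 1.47-fold higher in the 5, 15 and 25% mixed fields. These figures allow for the detection limit of the control arrays but not for the spread between mice, and at least 3 of the 6 arrays in each exposed mean were themselves not well above background. They set the mean of the exposed group over all its arrays against, for each control array, the dimmest signal well above background or the probe's own, whichever was higher. The adjusted p-values by limma were 0.0300, 0.0141, 0.0623 and 0.0259 and that of neutrons alone was 0.0209, where no fold is given because neither group was well above background. None met both thresholds, although the 25% difference did without replicate 1 of that group (adjusted p = 0.00266 by limma). On the shared slide, the Prtn3 level was 1.62 in the 5% mouse and 1.85 in the 15% mouse, both well above background, while the control (-1.80) and x-ray (0.18) mice were not. With spike-in centring, the neutron-alone difference of Prtn3 turned to -0.76.

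Ctsg was low but measured in most mice, and exposed groups overlapped controls throughout. The Ctsg level ran from 0.05 through a median of 0.56 to 1.37 in controls, from 0.51 through 1.21 to 2.81 after x-rays and from 0.34 through 0.89 to 1.74 in the 5% mixed field. It ran from -0.53 through 1.60 to 2.80 in the 15% mixed field, from -0.85 through 1.26 to 1.83 in the 25% mixed field and from 1.09 through 1.36 to 2.05 after neutrons alone. The log2 differences from controls were 0.83, 0.26, 0.86, 0.26 and 0.82 in order of x-rays, 5, 15 and 25% and neutrons alone. With spike-in centring, which moved the median of all genes to between -2.01 and -0.95, all 5 of these were below 0, from -1.04 to -0.15, and without centring those of 5% and neutrons alone were -0.42 and -0.12. The lowest adjusted p-value was 0.0132 by limma, after neutrons alone, where the 95% interval ran from 0.27 to 1.36. All 6 neutron-alone mice lay above the control mean and 3 of 6 above every control.

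Mpo and Ms4a3 were near or under the detection limit of the array in most mice. The brighter Mpo probe had mean levels of -0.73 ± 0.542 in controls, -0.59 ± 1.08 after x-rays, -1.05 ± 1.00, -0.39 ± 1.30 and -1.75 ± 0.755 in the 5, 15 and 25% mixed fields and -1.43 ± 0.237 after neutrons alone (SD, n = 6). It was well above background in 1 x-ray mouse, at a level of 1.46, and in 2 mice of the 15% mixed field, whose highest level was 1.74. The medians of the 15% mixed field and of controls were -0.51 and -0.53, and no fold is given for Mpo. The other Mpo probe was not well above background on any array. Ms4a3 was well above background in 1 mouse, replicate 3 of the 25% mixed field, at a level of 2.55, and its next highest level in that group was under 0. No fold is given for Ms4a3.

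In the main setting no relation from mouse to mouse was shown for any pair of members. Elane and Ctsg, and also Prtn3 and Ctsg, had a positive r under each scaling of the arrays used. For Elane and Ctsg, whether the adjusted permutation p in rank form was under 0.05 depended on the scaling. For the other pairs it was above 0.05 under each scaling. After the group means were removed, the deviations of Elane and Prtn3 over the 36 arrays had r = -0.286 (permutation p = 0.185, two-sided, 100000 resamples within groups) and rho = -0.141 (permutation p = 0.474). Those of Elane and Ctsg had r = 0.308 (permutation p = 0.109) and rho = 0.359 (permutation p = 0.0393), and those of Prtn3 and Ctsg r = 0.291 (permutation p = 0.186) and rho = 0.197 (permutation p = 0.312). Adjusted over the 9 relations computed, these p-values ran from 0.119 to 0.533. Over the 3 pairs of members alone, Elane and Ctsg had rho = 0.456 with arrays centred on the 75th percentile (adjusted permutation p = 0.0262) and rho = 0.411 after quantile normalization (adjusted permutation p = 0.0489), while the adjusted permutation p of r was 0.112 and 0.152. Without the 2 arrays farthest from the median of the first gene, r was -0.342, 0.327 and 0.368. Elane and the secondary granule gene Ngp had r = 0.469 (permutation p = 0.0184, adjusted p = 0.0828), Ctsg and Ngp r = 0.399 (adjusted permutation p = 0.0857) and Prtn3 and Ngp r = -0.0137. With the array median intensity, Elane had r = -0.536 and Prtn3 r = 0.441 (adjusted permutation p = 0.0828 and 0.0857), and Ctsg r = -0.306. The array median enters every centred level with a minus sign, so these last 3 values share a term. In the main setting the levels of each pair of members share it too. Removing group means also removes most of the difference between scan sessions, since sessions and groups nearly coincide.

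**Figure D3:**
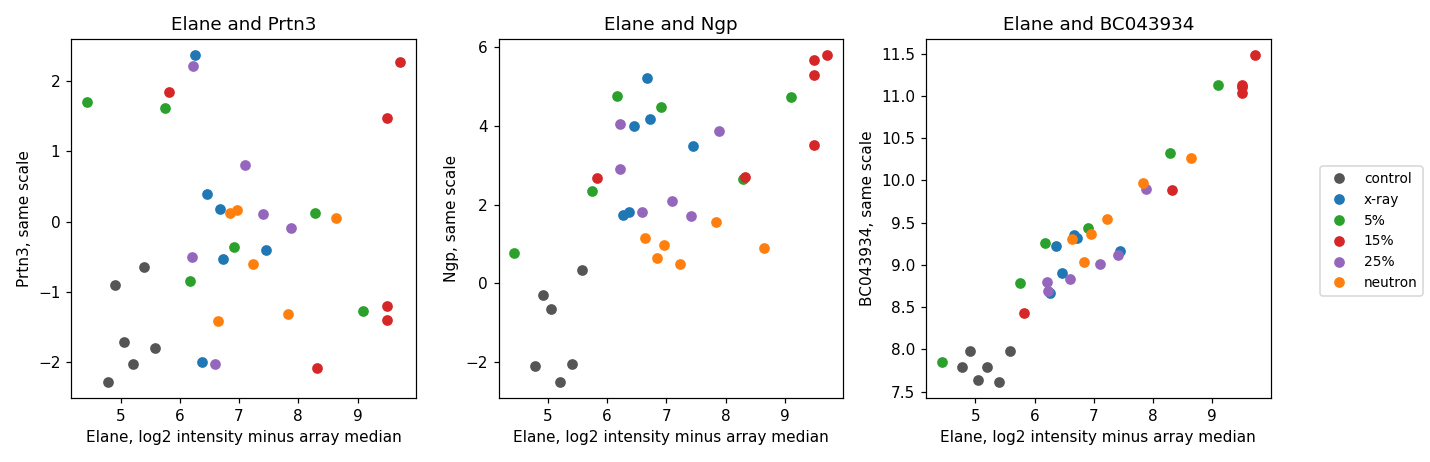
Elane level (horizontal axis) against Prtn3, Ngp and BC043934 (vertical axes), all in log2 intensity minus the array median, with one point for each of the 36 mice coloured by group. The points scatter for Prtn3, spread by group for Ngp and lie along a line for BC043934, for which r was 0.967.

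The genes most like Elane are not known as granule genes. Over the 36 arrays, group differences included, the 3 nearest of the genes tested were BC043934 (r = 0.967), ENSMUST00000030443 (r = 0.967) and Olfr1008, an olfactory receptor gene (r = 0.959), and with the group means removed these were 0.954, 0.960 and 0.948. BC043934 differed from controls by 1.31 after x-rays, 1.66, 2.71 and 1.26 in the 5, 15 and 25% mixed fields and 1.78 after neutrons alone, in log2 units, and Olfr1008 by 1.64, 2.21, 3.78, 1.52 and 2.81. The corresponding Elane differences, given above, have the same peak in the 15% mixed field. As the sequences printed above show, each of these probes holds a run of 11 to 17 C and T bases within bases 1 to 30. Of the 50 genes nearest to Elane (r of 0.892 or more), 33 had a run of at least 10 such bases within bases 1 to 30 of the probe, which is 66%, against 4.41% (665) of the 15085 genes tested. The same share was 0% of the 50 genes nearest to Prtn3 and 20% of those nearest to Ctsg. Over all genes tested, those whose probe had such a run had a median log2 fold change over controls of 0.56 after x-rays, 0.25, 0.53 and 0.22 in the 5, 15 and 25% mixed fields and 0.65 after neutrons alone. The remaining genes had -0.15, -0.10, -0.05, -0.13 and -0.15. The share of genes called higher was 15.6% with a run against 12.8% without after x-rays, 8.12% against 9.08% at 5%, 20.8% against 12.2% at 15%, 11.4% against 10.9% at 25% and 38.6% against 15.1% after neutrons alone. The run length was chosen after these probes had been seen, genes are not independent replicates, and the part of the probe sequence in the Elane result was not tested.

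**Figure D4:**
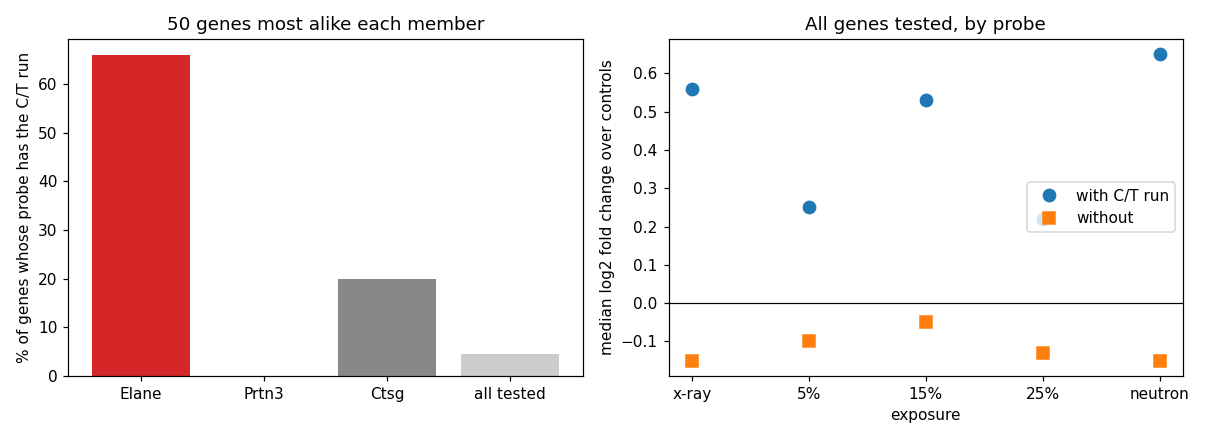
Left, the percentage of genes whose probe holds a run of at least 10 C and T bases within its first 30 (vertical axis), for the 50 genes most like each member and for all genes tested: 66% for Elane, 0% for Prtn3, 20% for Ctsg and 4.41% for all. Right, the median log2 fold change over controls (vertical axis) in each exposure of genes with and without such a run, which is above 0 with a run and below 0 without it.

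The genes nearest to Prtn3 were Ltc4s, which encodes leukotriene C4 synthase (r = 0.874), 1700047M11Rik (r = 0.845) and Car6, a carbonic anhydrase gene (r = 0.845), over the same 36 arrays. Ctsg had weaker likenesses, to Zfp703 (r = 0.727), ENSMUST00000180041 (r = 0.708) and the unnamed probe A_55_P2017660 (r = 0.703). The mean of the 3 standardized members was most like Slc28a1 (r = 0.806), Gm29676 (r = 0.802), 1700047M11Rik, Fkbp1b, Slc22a17, Cpne2, 6430531B16Rik, Kcnma1, 4833422C13Rik and P3h1 (r = 0.738), none of which is on the lists of granule or neutrophil genes used here. Prtn3 was well above background on 9 of the 36 arrays, and Car6 and ENSMUST00000180041 in 1 of 6 controls each. Likenesses that include them rest largely on signals near the detection limit, and every level shares the subtracted array median.

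No other gene of the primary granule proteins was called. Of 15 such genes, including those of lysozyme (Lyz2), serglycin (Srgn), the proteoglycan that holds granule proteases, and the lysosomal hydrolases, 12 were tested and 0 were called in any exposure by limma. Among all 15085 genes tested, 29.8% were called in either direction after x-rays. The share was 23.1%, 29.1% and 24.8% in the 5, 15 and 25% mixed fields and 36.6% after neutrons alone. Those called lower were 2552, 2119, 2494, 2096 and 3090 genes in the same order, and the shares called higher are given with Elane. No count of a list here or below was tested against these. Their median log2 differences from controls ran from 0.06 to 0.34 over the 5 exposures, against -0.12 to -0.02 for all genes tested. Lyz2 lay between -0.23 and 0.18, and Gusb, the gene of beta-glucuronidase, between 0.27 and 0.82.

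Among genes of the later granules, 3 were called higher than in controls in every exposure. Of 13 secondary and tertiary granule genes, 11 were tested, and 4, 3, 4, 4 and 5 were called higher after x-rays, in the 5, 15 and 25% mixed fields and after neutrons alone, with 0 called lower. Over all genes tested, 9.04 to 16.1% were called higher in these comparisons. Ngp (neutrophilic granule protein), Ltf (lactoferrin) and Camp (cathelicidin) were called in all 5. Ngp and Ltf were each well above background in 1 of 6 controls, and in 4 and 5 of 6 mice after neutrons alone. Their control means rest mostly on signals near the detection limit, so the sizes of their differences from controls are not exact. Camp was measured in every mouse. Ngp differed from controls by 4.62, 4.51, 5.50, 3.96 and 2.16 in log2 units, Ltf by 4.35, 4.03, 5.23, 3.83 and 2.26, and Camp by 3.29, 2.78, 3.57, 2.35 and 1.05. After neutrons alone, Ngp and Camp were called lower than after x-rays, by 2.46 and 2.24 (adjusted p = 0.00399 and 0.00385 by limma). Ngp was also called lower there than in the 25% mixed field, by 1.80 (adjusted p = 0.00635 by limma). Over all genes tested, 12.9% and 11.4% were called in these comparisons, and neutron-alone and x-ray mice shared no scan session. The Elane mean after neutrons alone was 0.70 above x-rays and 0.45 above the 25% mixed field, and neither difference was called. Both fell below 0 with normexp and with spike-in centring. Itgam, the integrin subunit CD11b, was called in all but the 5% mixed field and differed by 3.25 after neutrons alone, and Slc11a1 was called after neutrons alone (0.99). The gelatinase and collagenase genes Mmp9 and Mmp8 and the gene of lipocalin 2, Lcn2, were not called in any exposure. The list's median difference ran from 0.33 to 0.97.

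Genes that mark mature neutrophils were not called higher in any exposure. Of 14 genes, 12 were tested, and over all genes tested 9.04 to 16.1% were called higher. The receptor gene Csf3r was called lower in the 15 and 25% mixed fields and after neutrons alone, where it fell by 1.01, 0.97 and 1.00. The list's median ran from -0.11 to 0.45. Of 9 genes of granule protease processing and inhibition, 7 were tested. The stefin gene Stfa1 was called higher in the 15 and 25% mixed fields (3.84 and 2.90), Serpinb6a in the 15 and 25% mixed fields and after neutrons alone (2.31, 1.93 and 1.01) and Slpi, the gene of the secretory leukocyte peptidase inhibitor, in the 5% mixed field (1.59). Serpinb1a, which encodes an inhibitor of elastase, proteinase 3 and cathepsin G, was called lower in the 25% mixed field and after neutrons alone, by 1.88 and 1.21. Its uncalled differences were -2.01 after x-rays, -1.28 in the 5% mixed field and -1.54 in the 15% mixed field. The list's median ran from 0.57 to 1.5.

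Of 10 promyelocyte transcription factor genes, 9 were tested, and 0 were called higher than in controls, beside 9.04 to 16.1% of all genes tested. Myb and Irf8 were called lower after x-rays, by 1.71 and 1.42, and Runx1 after neutrons alone, by 0.91. In the mixed fields, without a call, Myb differed by -1.32 to -0.90 and Irf8 by -1.28 to -0.75. After neutrons alone both differed by 0.03. Cebpa, Cebpe, Gfi1 and Spi1, which encodes PU.1, were not called in any exposure. Of 13 granulocyte-monocyte progenitor genes, 11 were tested. Cd34 and Cd93 were called higher in the 25% mixed field (1.61 and 1.10), Kit in the 15% mixed field (1.54, with 3 of 6 controls well above background), and Csf1r and Flt3 after neutrons alone (0.82 and 0.97), while Csf3r, which is also on the list of mature neutrophil genes, was lower as given above. Uncalled differences at 5 and 15% were 1.44 and 1.59 for Cd34 and 0.68 and 1.01 for Cd93. Those of Kit at 5 and 25% were 1.34 and 1.15. After x-rays and neutrons alone, Cd34, Cd93 and Kit differed by -0.11 to 0.64. The median of this list ran from 0.08 to 0.79.

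Markers of other blood cells also moved. Over all genes tested, 23.1 to 36.6% were called in either direction in the 5 comparisons with controls. All 6 B cell markers tested were called lower in the x-ray and mixed field groups and 5 of 6 after neutrons alone. Their mean level ran from 7.90 to 8.73 in controls, from 2.95 to 5.92 in the x-ray and mixed field mice and from 6.77 to 7.36 after neutrons alone. Of 6 cycling-cell markers, 4 to 6 were called higher in every exposure, with a mean level of 1.77 to 2.55 in controls and 3.35 to 5.75 in exposed mice. Of 7 red-cell precursor markers, which include globin genes, 2 to 7 were called higher, with a mean level of 9.15 to 9.67 in controls and 9.39 to 11.78 in exposed mice. Globin RNA had been depleted from the samples by a kit before labelling. Of the 6 monocyte markers tested, Csf1r and Cx3cr1 were called higher after neutrons alone (0.82 and 1.30) and none in the other exposures, and 0 of the 6 NK cell markers were called. The T cell genes Cd8a and Cd3d were called lower in 4 and 2 exposures, the basophil genes Prss34 and Cpa3 higher in 5 and 1 and Cd200r3 lower in 1, the eosinophil gene Il5ra lower in 5 and Prg2 and Ear1 higher in 1 each, and the platelet genes Pf4 and Gp1ba higher in 3 and 1. The mean level of the mature neutrophil genes overlapped between controls (5.33 to 7.63) and every exposed group. The part of the change in cell types in the granule gene levels was not tested.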

How the data were processed

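Per the labels, blood was lysed in PAXgene solution, and RNA, depleted of globin RNA in the study's methods, was amplified and labelled with Cy3, and 1 mouse was hybridised to each of 36 one-colour Agilent mouse arrays. The authors deposited Agilent Feature Extraction 12.0.2 output, whose intensity values (processed signal, background subtracted by the scanner software) were used here, and a table of normalized log2 values, used as an alternative; the deposited log2 table holds 14243 probes. Following the study's methods, uniform spots were averaged on the log2 scale for each probe, and the median of the array was subtracted. Probes not uniform and significantly above background on 25% or more of arrays were dropped (21484 of 39429 passed), as were those 1.5-fold or more from their median on fewer than 20% of arrays (17963 passed), and the brightest probe of a gene was kept (15085 genes, of which 11308 have a symbol in the RefSeq table). Scan session and slide were read from the file headers.

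Each comparison was fitted with limma 3.58.1 in R 4.3.3 on its 12 arrays, and called at p under 0.001 with an adjusted p under 0.05. The methods' random variance t-test was an alternative. On simulated data for neutrons alone against controls, limma called 58% of genes raised by 1 and 88% of those raised by 2 log2 units, and 0.0539% of 14856 unchanged genes. Correlations used 100000 permutations within groups. The number of arrays limits the precision; between 15581 and 21300 probes per array were well above background. Replicates were separate mice, numbered by the labels, but the numbers did not pair them.

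The genes, lists and tests were chosen with earlier results of these data known. Genes named from a list are the 2 with the largest mean change among those called, and any gene that a count of 5 or fewer refers to; others named in a list paragraph, and the probe feature, were chosen after their values were seen. The values of 1 gene of the mature neutrophil list are not reported here.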

Additional observations from a re-analysis of the deposited data

Results flagged for a closer look

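In 2 of the 36 sets of 6 mice examined for the 6 member probes, 1 mouse stood apart by Dixon's test at the 95% level, which chance alone gives in about 1 of 20 sets. Elane in replicate 3 of the 15% mixed field was 5.82, against a group median of 9.50 and a control maximum of 5.58. This mouse was the only one of its group scanned on the slide shared with controls, and its part in the result is given with the Elane values above. Ms4a3 in replicate 3 of the 25% mixed field was 2.55, against a group median of -1.15, and it was the only array of 36 on which the Ms4a3 probe was well above background.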

How the results depend on the processing

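Against controls, 4 of the 15 member tests were called (Elane in 4 exposures), and 11 of 18 alternatives, added ones included, kept the count within 1.5 times. The count was 2 with a single model over 36 arrays (Elane at 15% and after neutrons alone), 2 with slide as a block (at 25% and after neutrons alone, where no slide held both groups and slide was a random block, while the 5 and 15% values come from the shared slide alone), 2 without centring (15 and 25%), 1 with spike-in centring and 1 with normexp (15% each), and 10 with the adjusted p under 0.05 alone, a rule that called 44.5 to 59.6% of all genes. With scan session as a block it was 1 (x-rays) of 9 tests, since 25% and neutrons alone could not be fitted. Over all probes of the members the count fell from 4 to 1 with normexp. Leaving out 1 array at a time gave 4 to 5 calls. Against x-rays the count of 0 became 1, Elane at 15%, with normexp, 1 with the single model, 1 with array weights, 1 with the adjusted p alone, 1 without centring, 1 without the 4 arrays of the session with the shared slide, and 0 to 1 on leaving out 1 array (1 without replicate 3 of 15%). Neutrons alone against 25% gave 0 calls throughout.

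With the replicate block, 5 of the 15 tests against controls were called, Prtn3 at 25% being added (adjusted p = 0.00365 by limma), and 0 against x-rays. The numbers do not pair the mice: deviations of same-numbered mice had a mean r of 0.0372, against -0.00622 for others. The median difference of all genes from controls lay between -0.12 and -0.02 in the main setting, between -2.01 and -0.95 with spike-in centring, between -1.11 and -0.04 without centring and between -1.21 and -0.18 with normexp, which called 2.49 to 7.42% of genes against 23.1 to 36.6%. Spike-in centring and no centring were chosen after seeing the data, as was leaving out the session with the shared slide. The cause of these changes was not tested.

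Signs of several uncalled differences turned. Between 5% and x-rays, Elane was -0.07 with 75th percentile centring, -0.02 with centring on probes well above background, -0.15 with quantile normalization, -0.65 with normexp, -0.16 in the deposited table, -0.92 with slide or session as a block and -0.20 with spike-in centring. Prtn3 was there -0.03 at the 75th percentile, -0.01 in the deposited table, -0.16 with spike-ins and -0.10 without the session of the shared slide. Between 15% and x-rays, Ctsg was -0.12 at the 75th percentile, -0.14 on probes above background, -0.03 by quantiles, -0.13 in the deposited table, -1 with slide or session as a block and -0.21 with spike-ins. Prtn3 was there 0 at the 75th percentile, -0.02 on probes above background, -0.06 by quantiles, -0.10 with spike-ins and -0.16 without the session, and Elane was -0.85 with slide or session as a block. Between 25% and x-rays, Prtn3 was -0.13 at the 75th percentile and -0.11 on probes above background, and Ctsg was 0.26 without centring. Between neutrons alone and x-rays, Elane was -0.10 with normexp and -0.14 with spike-ins, and Ctsg 0.17 with array weights and 0.22 without the session. Between neutrons alone and 25%, Elane was -0.46 with normexp, -0.02 with slide as a block and -0.57 without centring or with spike-ins, and Ctsg -0.62 with slide as a block and -0.46 without centring or with spike-ins.

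Against controls, Elane at 5% was -0.05 with normexp. Ctsg at 5% was -0.05 with array weights, -0.42 without centring and -1.04 with spike-ins, after neutrons alone -0.12 without centring and -1.01 with spike-ins, and with spike-ins -0.15 after x-rays, -0.36 at 15% and -0.55 at 25%. Prtn3 after neutrons alone was -0.76 with spike-ins. Leaving out 1 array, the difference from x-rays ran from -0.34 to 0.59 for Elane and from -0.24 to 0.63 for Prtn3 at 5%, from -0.22 to 0.45 for Ctsg and from -0.28 to 0.62 for Prtn3 at 15%, from -0.35 to 0.55 for Prtn3 at 25% and from -0.21 to 0.25 for Ctsg after neutrons alone. The correlation of Elane with Ctsg became 0.389 (permutation p = 0.0375) with the 75th percentile, its rank form is given above, and the other pairs kept their sign and side. Signal over background limits Mpo, Ms4a3 and Prtn3.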
